A study of Homo sapiens with 15 samples.

Results

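The respiratory chain is the set of protein complexes in the inner mitochondrial membrane that burns fuel with oxygen. Its genes were taken from the deposited table by symbol, as the subunits of complexes I, II, III, and IV and of the ATP synthase, which is called complex V. Of the 19612 genes in the table, 104 were chosen, without the complex I assembly factors named NDUFAF. Of these, 91 are encoded in the nucleus and 13 in the mitochondrial genome. The nuclear genes fell into 40 of complex I, 4 of complex II, 10 of complex III, 17 of complex IV, and 20 of complex V. The complex was assigned from the start of the symbol alone, which puts NDUFA4 and NDUFA4L2 with complex I. The mitochondrial genes were 7 of complex I, 1 of complex III, 3 of complex IV, and 2 of complex V. The table uses the older ATP5 symbols, and all 20 were matched to their current names in RefSeq. The choice by symbol also takes in ATP5S and ATP5SL, which are assembly proteins rather than subunits, the pseudogene ATP5EP2, and the read-through genes NDUFC2-KCTD14 and ATP5J2-PTCD1.

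H1975 cells are an established line from a human lung adenocarcinoma that carries mutant EGFR. H1975–OR is a subline made resistant to osimertinib by chronic exposure to that EGFR inhibitor. Both lines have the same EGFR status in the labels, and H1975–OR cells were maintained in 500 nM osimertinib. Per the study's methods, the growth medium was exchanged at the start of treatment for a medium with charcoal-stripped serum and either vehicle or the agents. Whether the subline is a single clone is not given in the sources used here. The 5 groups, each with 3 libraries from separate passages, were H1975 with vehicle (Samples 1a, 1b, and 1c) and H1975–OR with vehicle (2a, 2b, and 2c), with 100 nM 1,25(OH)2D3, the active form of vitamin D3 (3a, 3b, and 3c), with 500 nM osimertinib (4a, 4b, and 4c), or with both agents at these doses (5a, 5b, and 5c). Cells were treated for 96 h and dosed at 0, 48, and 92 h. Because the libraries of a group are passages of 1 line, p-values measure the spread between passages.

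Complex I takes electrons from NADH and complex II takes them from succinate. Both pass them through coenzyme Q to complex III, then through cytochrome c to complex IV, which reduces oxygen. Complexes I, III, and IV pump protons, and complex V uses the returning protons to make ATP. All 4 subunits of complex II are nuclear, while each of the other complexes mixes nuclear and mitochondrial subunits, so that 2 genomes must supply 1 machine. The mitochondrial mRNAs are cut from long transcripts of the whole circular genome. All but MT-ND6 come from the same strand.

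The libraries held between 4378030 and 6140120 estimated counts. Sample 3a stood apart and was left out of every test, so that 1,25(OH)2D3 alone is represented by Samples 3b and 3c. The authors had left it out too. The 11 epithelial markers chosen for the line summed to between 4819 and 6257 CPM, which are counts scaled for library size, in H1975 and between 3782 and 4115 CPM in vehicle-treated H1975–OR, led by KRT18. The surfactant genes SFTPB and SFTPC and the alveolar protease NAPSA had at most 13 counts in any library. The 7 markers of blood, endothelial, and liver cells summed to between 28.7 and 44.2 CPM in H1975 and between 14.9 and 19.7 CPM in vehicle-treated H1975–OR. With 1,25(OH)2D3 they summed to between 12.4 and 30.3 CPM, with osimertinib to between 15.6 and 26.3 CPM, and with both agents to between 8.96 and 25.1 CPM. The lysosomal protein gene CD68 made most of this sum, and CD3E was at 0 in every library. The part of these cells in the results was not tested. All CPM are on 1 TMM scale over the 15 libraries.

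The 13 mitochondrial mRNAs took a smaller share of a library than the 91 nuclear genes in every library but 3a, 4a, and 5a. Their share of the estimated counts was 0.812% ± 0.206 (SD, n = 3) in H1975 and 0.762% ± 0.014 (SD, n = 3) in vehicle-treated H1975–OR. It was 0.697% in Sample 3b and 0.666% in Sample 3c, 0.796% ± 0.208 (SD, n = 3) with osimertinib, and 0.700% ± 0.311 (SD, n = 3) with both agents. Samples 3b and 3c both lay below the 3 vehicle-treated H1975–OR libraries, and all other pairs of groups overlapped. In bulk RNA, fewer cells of a type and less RNA per cell cannot be told apart. The library with letter a had the highest mitochondrial share in 4 of the 5 groups, at 1.05% in 1a, 1.54% in 3a, 1.04% in 4a, and 1.04% in 5a, while 2a had 0.746%. The lowest share of all libraries was 0.424%, in 5c.

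**Figure D1:**
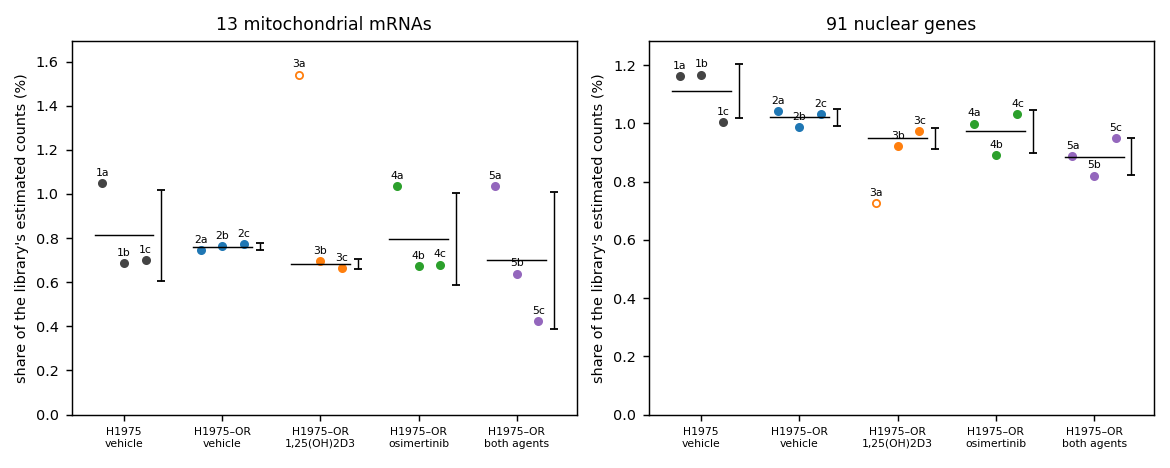
Share of each library's estimated counts (%, vertical axis) taken by the 13 mitochondrial mRNAs (left) and the 91 nuclear genes (right) in the 5 groups. Points are libraries, lines are group means, and bars are standard deviations, both without Sample 3a (open circle). Sample 3a has the highest mitochondrial share, 1.54%, and the lowest nuclear share, 0.727%.

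The nuclear share was 1.11% ± 0.0917 (SD, n = 3) in H1975 and 1.02% ± 0.0287 (SD, n = 3) in vehicle-treated H1975–OR. It was 0.922% and 0.974% in Samples 3b and 3c, 0.974% ± 0.0739 (SD, n = 3) with osimertinib, and 0.886% ± 0.0639 (SD, n = 3) with both agents. Each of the 3 libraries with both agents, and also Samples 3b and 3c, lay below each of the 3 libraries of vehicle-treated H1975–OR.

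Among the mitochondrial mRNAs, the 3 subunits of complex IV dominated. MT-CO1, MT-CO2, and MT-CO3, which form the catalytic core of complex IV, together took between 83.4% and 91.4% of the mitochondrial counts in the 14 libraries other than 3a. Per kilobase of gene, with lengths from GENCODE release 44, MT-CO3 (chrM:9207-9990, 784 bases, GRCh38) had the highest mean level, 4023 CPM per kilobase. MT-CO1 (chrM:5904-7445) followed with 1614 and MT-CO2 (chrM:7586-8269) with 1471 CPM per kilobase. The ATP synthase subunit MT-ATP6 had 161 and its partner MT-ATP8 (chrM:8366-8572), whose frame overlaps that of MT-ATP6, had 73.9 CPM per kilobase. The cytochrome b gene MT-CYB (chrM:14747-15887), the only mitochondrial subunit of complex III, had 123 CPM per kilobase. The complex I subunits ranged from 66.1 CPM per kilobase for MT-ND6 (chrM:14149-14673, the opposite strand) to 306 for MT-ND3, and MT-ND1 (chrM:3307-4262) had 75.4. MT-CO3 thus stood far above mRNAs cut from the same strand.

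The mitochondrial genes share sequence with nuclear copies of the mitochondrial genome, and the part of this in the order of levels was not tested. Of the 31-base words in MT-CO1, 66.7% also occur, on either strand, in a GENCODE transcript of another gene, and the pseudogene MTCO1P12 shares the most. The share was 63.7% for MT-ATP6, 50.5% for MT-CO2, 45.0% for MT-CO3, 44.6% for MT-ATP8, 30.7% for MT-ND6, 28.2% for MT-ND1, and 4.95% for MT-CYB. Such pseudogenes have no row in the deposited table, and the transcript annotation behind the estimated counts is not given in the sources used here.

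Between vehicle-treated H1975–OR and H1975, none of the 13 mitochondrial mRNAs passed edgeR's quasi-likelihood test at an adjusted p under 0.05, and none passed with DESeq2. Of all genes, edgeR called 9.89% higher and 10.3% lower, and DESeq2 called 1438 genes higher and 1603 lower. At an unadjusted p under 0.05, 0 were higher and 1 was lower, where 2195 and 2132 of all 12513 genes tested were. The median log2 fold change of the 13 mRNAs was -0.15, against 0.01 for all genes. MT-CO1, the subunit that binds oxygen, had 3531, 1908, and 2394 CPM in Samples 1a, 1b, and 1c and 2254, 2550, and 2183 CPM in 2a, 2b, and 2c. The 2 groups overlapped, and Sample 1a stood above the rest. MT-CYB had 198, 92.8, and 218 CPM in H1975 and 93.3, 93.5, and 149 CPM in H1975–OR, with Sample 1b at the level of the resistant cells. The smallest p belonged to MT-ND4L, a membrane subunit of complex I, with 60.1, 29.4, and 72.2 CPM in H1975 and 29.1, 29.2, and 35.9 CPM in H1975–OR (log2 fold change -0.77, SE 0.30, adjusted p = 0.105 with edgeR). Here too Sample 1b set the overlap, and without it 2 of the 13 mRNAs were called lower.

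**Figure D2:**
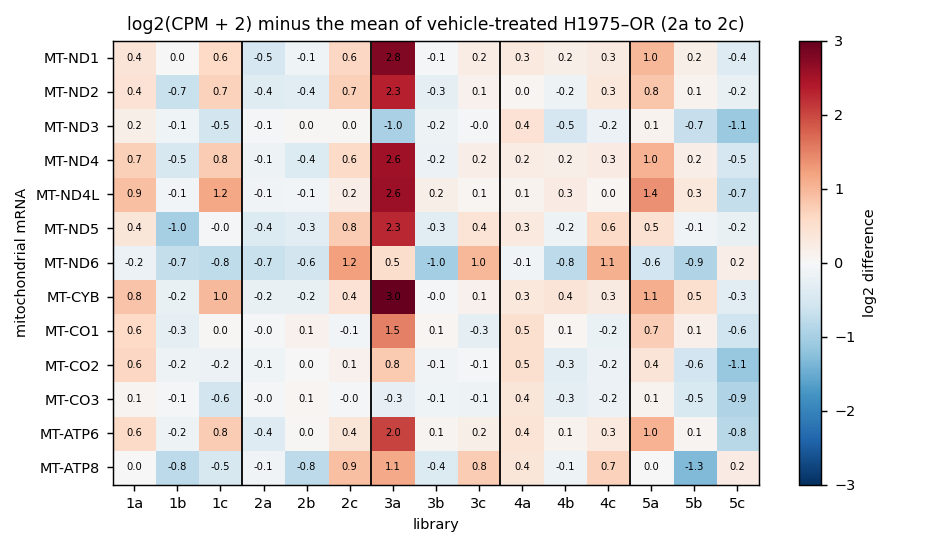
The 13 mitochondrial mRNAs (rows) in the 15 libraries (columns), as log2(CPM + 2) minus the mean of vehicle-treated H1975–OR. Vertical lines separate the 5 groups. Sample 3a is high for most mRNAs but not for MT-CO3 and MT-ND3, and MT-ND6 and MT-ATP8 are highest in the letter c library of each H1975–OR group when 3a is left out.

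With Sample 3a left out, MT-ND6 and MT-ATP8 were highest with the letter c in every H1975–OR group. MT-ND6, the complex I subunit encoded on the opposite strand, had 20.9, 22.8, and 82.5 CPM in Samples 2a, 2b, and 2c. It had 15.9 and 69.9 CPM in 3b and 3c, 31.8, 19.0, and 73.4 CPM in 4a, 4b, and 4c, and 22.5, 17.4, and 39.9 CPM in 5a, 5b, and 5c. The letter c library was thus the highest in all 4 H1975–OR groups, while in H1975 the values were 30.1, 20.0, and 19.5 CPM and Sample 1c was the lowest. MT-ATP8 had 13.5, 7.65, and 28.9 CPM in 2a, 2b, and 2c and 10.5 and 26.4 CPM in 3b and 3c. It had 19.6, 13.1, and 24.7 CPM with osimertinib and 14.8, 4.70, and 17.7 CPM with both agents, again highest with the letter c. Sample 3a had 34.7 CPM of MT-ATP8, above 3c, so for that group this holds only without 3a. Without 3a, MT-ND2, MT-ND4, and MT-ND5 were highest with that letter in 3 of the 4 groups. MT-CO1 was never highest with that letter in these groups. What libraries of the same letter share is not stated in the labels.

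Nearly all nuclear subunits were measured. Of the 91 nuclear genes, 81 passed the filter on low counts for the comparison of the lines and 80 for the comparisons with osimertinib. The 10 that passed neither filter were ATP5EP2, ATP5L2, ATP5S, COX4I2, COX6A2, COX7A1, COX7B2, COX8C, NDUFA4L2, and UQCRHL, with a mean of at most 1.09 CPM each. Several of these are tissue or testis forms of subunits whose common form was abundant. Of the complex IV isoform pairs, COX4I1 had between 213 and 323 CPM over the 15 libraries, while its hypoxia and lung form COX4I2 was at 0 in all of them. COX6A1 had between 120 and 215 CPM, and the heart and muscle form COX6A2 was at 0 throughout. A count of 0 allows up to 3 counts in a library.

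The other isoforms divided likewise into an abundant form and a scarce one. The muscle form COX7A1 had at most 7 counts in any library, while COX7A2 had between 52.6 and 130 CPM and COX7A2L, which helps to join complexes III and IV, had between 88.3 and 143 CPM. COX8A had between 136 and 238 CPM and COX8C at most 3 counts. COX6B1 had between 109 and 157 CPM. Its testis form COX6B2 had 1.91, 2.55, and 2.65 CPM in H1975 and 1.43, 0.41, and 0.58 CPM in vehicle-treated H1975–OR, which was not called (adjusted p = 0.148 with edgeR). NDUFA4 had between 70.2 and 245 CPM, while NDUFA4L2, a gene known to be induced by low oxygen, had at most 9 counts. Among the small complex III subunits, the hinge protein UQCRH had between 78.7 and 143 CPM, and its near copy UQCRHL had at most 2.55 CPM. UQCRH shares 28.2% of its 31-base words with other genes, of which UQCRHL shares the most. UQCR10 had between 93.3 and 199 CPM and UQCR11 between 65.5 and 125 CPM.

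Per kilobase of the canonical transcript, and over the 14 libraries other than 3a, the most abundant nuclear genes were NDUFA13 in complex I with 449 CPM per kilobase, SDHD in complex II with 106, UQCRH in complex III with 218, COX7C in complex IV with 478, and ATP5B, the catalytic beta subunit of the ATP synthase, in complex V with 530. The least abundant of those tested were NDUFA9 with 5.02, SDHA with 31.9, UQCRB with 14.1, COX6B2 with 0.766, and ATP5F1 with 6.37 CPM per kilobase. With the longest transcript of each gene as the length, NDUFA1 replaced NDUFA13, COX8A replaced COX7C, NDUFS7 replaced NDUFA9, and ATP5SL replaced ATP5F1, and the other 6 stayed in place. For SDHD, UQCRB, and ATP5B the canonical transcript is also the longest, so their own values could not change. UQCRB was low per kilobase over its 8459 bases, at a mean of 119 CPM.

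The resistant line differed from H1975 in 14 nuclear subunits, 6 higher and 8 lower. Of the 81 genes tested these are 7.41% and 9.88%, where 9.89% of all 12513 genes were called higher and 10.3% lower, so the respiratory chain genes were called at about the share of all genes. At an unadjusted p under 0.05, 11 were higher and 16 lower, where 2195 and 2132 of all 12513 genes were. The median log2 fold change of the 81 genes was 0.03, against 0.01 for all genes. By complex, 2 were higher and 3 lower of 39 in complex I, 0 and 0 of 4 in complex II, 0 and 1 of 9 in complex III, 1 and 0 of 12 in complex IV, and 3 and 4 of 17 in complex V. Thus 7 of the 14 called genes belong to the ATP synthase. Genes called or named for a small p were chosen on the same libraries. Whether their groups overlap is therefore description and not further support. The share of all genes without overlap was not counted.

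**Figure D3:**
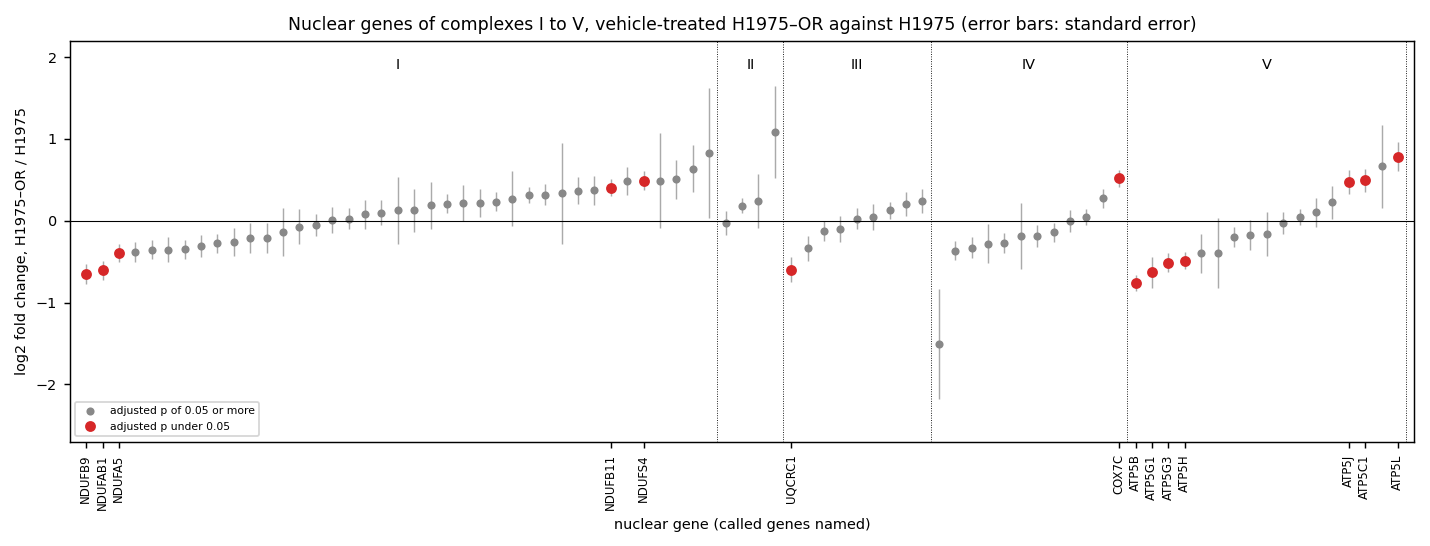
Log2 fold change of vehicle-treated H1975–OR against H1975 (vertical axis) for the 81 nuclear genes tested, grouped by complex I to V. Bars are standard errors, and red points, the only ones named on the horizontal axis, have an adjusted p under 0.05. The 14 red points lie on both sides of 0, and 7 of them are in complex V.

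In the catalytic head of the ATP synthase, ATP5B (now ATP5F1B, chr12:56638175-56645984, GRCh38) was lower in the resistant line and its partner ATP5C1 was higher. ATP5B had 1357, 1576, and 1512 CPM in Samples 1a, 1b, and 1c and 881, 859, and 850 CPM in 2a, 2b, and 2c. The groups did not overlap, and the log2 fold change was -0.76 (SE 0.10, adjusted p = 0.00159 with edgeR). ATP5C1 (now ATP5F1C), the gamma subunit that turns within the head, had 111, 140, and 117 CPM in H1975 and 173, 167, and 172 CPM in H1975–OR (log2 fold change 0.49, SE 0.14, adjusted p = 0.0402). Every H1975–OR library lay above every H1975 library.

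In the membrane ring, both called subunit c genes were lower. ATP5G1 (now ATP5MC1) had 90.1, 73.3, and 63.9 CPM in H1975 and 56.9, 45.9, and 42.4 CPM in H1975–OR (log2 fold change -0.63, SE 0.18, adjusted p = 0.0429). ATP5G3 (now ATP5MC3) had 146, 169, and 153 CPM and then 118, 99.5, and 108 CPM (log2 fold change -0.51, SE 0.11, adjusted p = 0.0138). The 3 subunit c genes encode the same mature protein, and the third of them, ATP5G2, was not called. Neither ATP5G1 nor ATP5G3 overlapped between the lines.

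In the stalk and membrane base of the ATP synthase the called genes went both ways. ATP5L (now ATP5MG), the small subunit g of the dimer interface, had 37.9, 35.6, and 25.2 CPM in H1975 and 55.9, 58.1, and 54.2 CPM in H1975–OR, the largest called rise among the nuclear genes (log2 fold change 0.78, SE 0.18, adjusted p = 0.0161). The stalk subunit F6, ATP5J (now ATP5PF), had 52.2, 61.8, and 49.7 CPM and then 75.1, 64.9, and 85.0 CPM (log2 fold change 0.48, SE 0.14, adjusted p = 0.0495), a call lost under 10 of 13 alternatives. The stalk subunit d, ATP5H (now ATP5PD), had 202, 212, and 186 CPM and then 153, 140, and 130 CPM (log2 fold change -0.49, SE 0.10, adjusted p = 0.0134). ATP5J shares 35.2% of its 31-base words with other genes and ATP5H shares 29.1%, the genes that share the most being the head-to-head neighbour GABPA and KCTD2. Words on either strand were counted, so their estimated counts may be less certain, which was not tested.

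The 20 nuclear complex V genes summed to 3637, 3961, and 3526 CPM in H1975 and to 3046, 2959, and 3009 CPM in vehicle-treated H1975–OR, without overlap. Without ATP5B the sums were 2280, 2385, and 2014 CPM and 2165, 2100, and 2159 CPM, and the groups overlapped. The lower total thus rested on ATP5B.

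In complex I, NDUFB9 and NDUFAB1 had the largest called falls. NDUFB9, an accessory subunit of the membrane arm, had 150, 192, and 164 CPM in H1975 and 112, 101, and 107 CPM in H1975–OR (log2 fold change -0.65, SE 0.12, adjusted p = 0.00767). NDUFAB1, the mitochondrial acyl carrier protein, which also serves fatty acid synthesis in the matrix, had 97.9, 101, and 98.1 CPM and then 71.0, 57.7, and 64.0 CPM (log2 fold change -0.61, SE 0.12, adjusted p = 0.00871). NDUFA5, an accessory subunit of the matrix arm, had 110, 124, and 112 CPM and then 81.4, 84.8, and 95.1 CPM (log2 fold change -0.39, SE 0.11, adjusted p = 0.0427), a call lost under 9 of 13 alternatives. None of the 3 overlapped between the lines.

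Both complex I genes that rose are accessory subunits, and neither overlapped between the lines. NDUFS4, which is mutated in some cases of Leigh syndrome, had 60.5, 73.3, and 69.6 CPM in H1975 and 98.0, 94.3, and 89.6 CPM in H1975–OR (log2 fold change 0.49, SE 0.12, adjusted p = 0.0200). NDUFB11 had 128, 135, and 130 CPM and then 162, 177, and 175 CPM (log2 fold change 0.41, SE 0.10, adjusted p = 0.0223).

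Complexes III and IV had 1 called gene each. UQCRC1, a core subunit of complex III, had 97.7, 87.5, and 99.9 CPM in H1975 and 65.9, 60.2, and 60.4 CPM in H1975–OR (log2 fold change -0.60, SE 0.16, adjusted p = 0.0297). COX7C, a small subunit of complex IV, had 239, 239, and 224 CPM and then 303, 342, and 352 CPM (log2 fold change 0.52, SE 0.10, adjusted p = 0.00962). Each was apart from the other line in all 3 libraries.

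**Figure D4:**
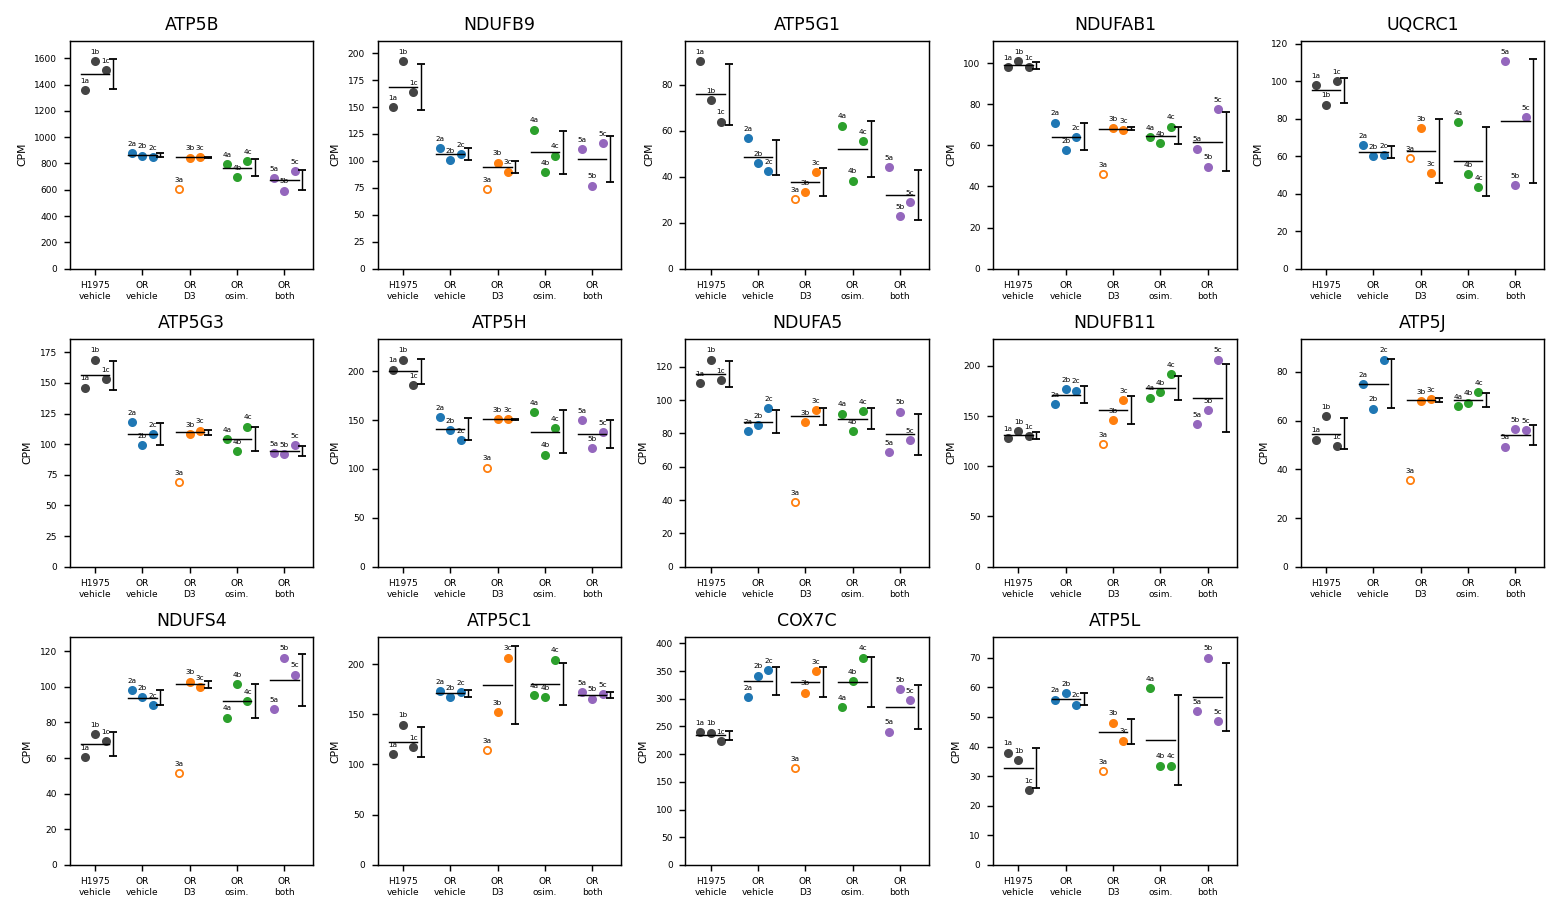
CPM of the 14 called nuclear genes in each of the 15 libraries, ordered by log2 fold change from ATP5B to ATP5L. OR is H1975–OR, D3 is 1,25(OH)2D3, osim. is osimertinib, and both is both agents. The axes start at 0, lines are group means, and bars are standard deviations, both without Sample 3a (open circle). In ATP5B, all H1975–OR libraries stay at or below 881 CPM under every treatment.

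None of the 4 complex II genes was called. SDHC, an anchor subunit, had the smallest p, with 110, 117, and 114 CPM in H1975 and 127, 128, and 128 CPM in H1975–OR (log2 fold change 0.18, SE 0.09, adjusted p = 0.198). SDHA, the flavoprotein that oxidises succinate, varied most, with 91.8, 29.9, and 26.5 CPM in H1975 and 90.4, 134, and 87.9 CPM in H1975–OR (log2 fold change 1.08, SE 0.57, adjusted p = 0.214). It also ranged from 15.6 to 128 CPM within the osimertinib group and from 28.5 to 178 CPM with both agents, and it shares 32.0% of its 31-base words with other genes. The iron-sulfur subunit SDHB had a log2 fold change of 0.24 (SE 0.33) and the anchor SDHD one of -0.03 (SE 0.15).

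Of the 14 calls, ATP5B, NDUFB9, and NDUFAB1 held under each of the 13 alternatives run for them. ATP5L was lost only without Sample 2b, and COX7C only with Sample 3a kept. ATP5G3 and ATP5H were lost under 3 each, NDUFS4 under 4, and ATP5G1 under 6. ATP5C1, NDUFB11, and UQCRC1 were lost under 7 each, NDUFA5 under 9, and ATP5J under 10. The number of calls fell from 14 to 5 with Sample 3a kept, to 9 without 1a, to 8 without 1b, to 8 without 1c, to 4 without 2b, and to 7 without 2c. Calls over all genes fell as well, from 1237 higher and 1284 lower to 760 and 876 with Sample 3a kept. They were 1037 and 1175 without 1a, 676 and 750 without 1b, and 782 and 858 without 1c. Without 2b they were 705 and 736, and without 2c 824 and 848.

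The promoters of the 14 genes were searched for the letters of 3 factors known to act on respiratory chain genes. These were GCGCATGC for NRF1, CCGGAAGT for GABP, and AAGATGGC for YY1, on both strands, over 250 bases before to 50 after the start in the RefSeq table of GRCh38.p14. The NRF1 letters nearly read the same on both strands, so that 1 site can give a pair of overlapping matches. Of the 69 nuclear genes with a promoter in the table, 27 (39.1%) held at least 1 of the 3, against 11.6% of 22199 protein-coding genes and 9.36% of all 35116 promoters. Of the 85 mitochondrial ribosomal protein genes with a promoter in the table, 33 (38.8%) did. ATP5B, NDUFB9, and ATP5G3 had no entry. NRF1 letters were in 18.8% of the 69 and 3.05% of all promoters, GABP letters in 9 of the 69 and 4.14% of all, and YY1 letters in 15.9% and 2.89%. A match was present in 3 of the 6 genes that rose, in 2 of the 5 with a promoter that fell, and in 22 of the 55 that were not called. The 30 bases around the first match of each called gene are shown because they let the genes that rose and fell be compared, with the matched letters in capitals, 5′ to 3′ on the gene's strand.
ATP5C1, higher, chr10:7788144-7788173, plus strand: ggggagcttcgGCGCATGCGCgctgaggcc
ATP5J, higher, chr21:25735156-25735185, minus strand: ccactcaaagaGCGCATGCgtacagagcaa
NDUFS4, higher, chr5:53560649-53560678, plus strand: ttgcctgcagcAAGATGGCggcggtgtcaa
ATP5H, lower, chr17:75047053-75047082, minus strand: cccgggaagatACTTCCGGaaccagccctc
UQCRC1, lower, chr3:48609605-48609634, minus strand: actgcagctggAAGATGGCggcgtccgtgg
The NRF1 letters lie upstream of the start in ATP5C1 and ATP5J, and the GABP letters lie upstream in ATP5H. The YY1 letters of NDUFS4 and UQCRC1 lie just after the start, and both sequences continue with ggcg after them. ATP5J holds YY1 letters as well. YY1 letters thus occur in genes of both directions. A match of letters is not a bound site.

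Of the genes that serve the respiratory chain, 4 lists gave few calls, at 5.13% or less of a list higher and between 3.85% and 11.1% lower, against 9.89% and 10.3% of all genes. Of 52 assembly factors tested, 1 was higher and 2 were lower in H1975–OR. COX17, the copper carrier for complex IV, had 36.0, 38.7, and 42.3 CPM in H1975 and 16.2, 14.9, and 18.3 CPM in H1975–OR (log2 fold change -1.23, SE 0.17, adjusted p = 0.00261). BCS1L, which inserts the Rieske protein into complex III, fell by 0.64 on the log2 scale, and SURF1, a complex IV assembly factor, rose by 0.54. Of 33 regulators of mitochondrial transcription, replication, and biogenesis, 1 was higher (MTERF2, log2 fold change 1.06) and 2 were lower (PTCD1, -0.70, and the RNA stability factor SLIRP, -0.42). TFAM, which packages and transcribes mitochondrial DNA, was not called (135, 171, and 157 CPM against 156, 108, and 111 CPM, adjusted p = 0.245).

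The factors whose letters were searched were not called either. NRF1 had a log2 fold change of -0.35 (SE 0.25, adjusted p = 0.356), GABPA one of 0.35 (SE 0.13, adjusted p = 0.0906), and YY1 one of -0.36 (SE 0.13, adjusted p = 0.0885). Of 18 carriers and coenzyme Q genes, 0 were higher and 2 were lower. These were COQ6, a hydroxylase of coenzyme Q synthesis (log2 fold change -0.82, adjusted p = 0.0342), and CYCS, which encodes cytochrome c, with 448, 549, and 487 CPM in H1975 and 398, 297, and 367 CPM in H1975–OR (log2 fold change -0.47, SE 0.14, adjusted p = 0.0473). Of 78 mitochondrial ribosomal proteins, which translate only the 13 mitochondrial mRNAs, 4 were higher and 5 lower, among them MRPL2 (log2 fold change 1.57) and MRPS28 (-0.84).

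With 100 nM 1,25(OH)2D3 against vehicle in H1975–OR, no respiratory chain gene was called. Of 81 nuclear and 13 mitochondrial genes, 0 were higher and 0 lower with edgeR, 0 with DESeq2, and 0 at an unadjusted p under 0.05. Of all 12513 genes, edgeR called 0.152% higher and 0% lower, and DESeq2 called 79 genes higher and 45 lower. At an unadjusted p under 0.05, 456 of all genes were higher and 454 lower. The median log2 fold change was -0.03 for the nuclear and -0.02 for the mitochondrial genes, against -0.01 for all genes. The median standard error was 0.17 for the nuclear and 0.33 for the mitochondrial genes. The mitochondrial log2 fold changes lay between -0.15 and 0.15.

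The genes with the smallest p in complexes II to V were SDHB, UQCRH, COX5A, and ATP5J2. With so few libraries, the lack of a call does not show that the groups were alike. SDHB, the iron-sulfur subunit of complex II, overlapped between the groups, with 66.9, 27.9, and 37.6 CPM and then 38.2 and 24.7 CPM. UQCRH had 114, 143, and 120 CPM with vehicle and 104 and 108 CPM with 1,25(OH)2D3 (log2 fold change -0.24, SE 0.16, adjusted p = 0.819). COX5A had 75.9, 87.1, and 70.9 CPM and then 85.5 and 102 CPM (log2 fold change 0.27, SE 0.15). ATP5J2, a membrane subunit of the ATP synthase, had 143, 159, and 174 CPM and then 97.5 and 146 CPM (log2 fold change -0.38, SE 0.21). In MT-CO3, the smallest p of the mitochondrial genes, the log2 fold change was -0.13 (SE 0.18). ATP5B remained at 844 CPM in Sample 3b and 847 CPM in 3c, below all H1975 libraries.

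Sample 3a, labelled as treated with 1,25(OH)2D3, departed from both other libraries of its group in these genes. Of the 13 mitochondrial mRNAs, 10 lay above all 3 vehicle-treated H1975–OR libraries and 2 below, where 33.7% of all genes lay above and 34.0% below. Of the 81 nuclear genes, 8 lay above and 65 (80.2%) below. MT-CYB had 879 CPM in 3a and 106 and 119 CPM in 3b and 3c. MT-ND1 had 429 CPM against 58.4 and 71.2 CPM, and MT-CO1 had 6578 CPM against 2434 and 1938 CPM. MT-CO3 had 2872 CPM against 3150 and 3112 CPM and MT-ND3 had 58.9 CPM against 104 and 114 CPM, so those were the mRNAs of 3a below the vehicle range. Samples 3b and 3c were also below it for MT-CO3, where vehicle had at least 3355 CPM. Sample 3b was below it for MT-ND3 too, where vehicle had at least 111 CPM. Of the 13 mRNAs, 3 lay below the vehicle range in 3b and 2 in 3c, and 0 lay above it in either. Of all genes, 23.9% lay below and 24.2% above in 3b, and 24.7% below and 25.9% above in 3c. Of the 81 nuclear genes, 33 (40.7%) lay below and 9 above in 3b, and 22 (27.2%) below and 20 above in 3c.

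The nuclear values of Sample 3a moved the other way. ATP5B had 602 CPM, against at least 850 CPM with vehicle, and NDUFA5 had 39.0 CPM, against at least 81.4 CPM. Of the related lists, 55 of 78 mitochondrial ribosomal proteins, 28 of 52 assembly factors, 11 of 18 carriers, and 16 of 33 regulators lay below the vehicle libraries. Of all genes, 34.0% did. With Sample 3a kept, still no gene was called for 1,25(OH)2D3, but the median log2 fold change of the mitochondrial genes became 1.05 and that of the nuclear genes -0.17.

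With 500 nM osimertinib against vehicle in H1975–OR, no gene was called either. Of 80 nuclear and 13 mitochondrial genes tested, 0 were higher and 0 lower with edgeR and with DESeq2. Of all 12503 genes, edgeR called 0.032% higher and 0.016% lower, and DESeq2 called 61 genes higher and 56 lower. At an unadjusted p under 0.05, 453 of all genes were higher and 488 lower. Of the respiratory chain genes, 0 were higher and 1 was lower at that p. This was UQCRC2, a core subunit of complex III, with 128, 115, and 127 CPM with vehicle and 112, 95.6, and 85.7 CPM with osimertinib (log2 fold change -0.33, SE 0.14, adjusted p = 0.651). The median log2 fold change was -0.05 for the nuclear and 0.14 for the mitochondrial genes, against 0.01 for all genes, with a median standard error of 0.16 and 0.35. The mitochondrial median became 0.46 without Sample 2c and -0.0073 without 2a.

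The smallest p in the other complexes belonged to NDUFC1, SDHC, COX7A2, and ATP5F1. COX7A2 had 77.1, 94.9, and 82.3 CPM with vehicle and 119, 102, and 130 CPM with osimertinib (log2 fold change 0.47, SE 0.22, adjusted p = 0.672), without overlap. ATP5F1, the stalk subunit b, had 11.5, 14.3, and 12.9 CPM and then 45.5, 7.78, and 23.5 CPM, so that Sample 4a carried the difference. NDUFC1 had 25.6, 38.3, and 21.8 CPM and then 4.76, 19.9, and 11.2 CPM (log2 fold change -1.25, SE 0.62, adjusted p = 0.703). SDHC differed by 0.08 on the log2 scale (SE 0.11). MT-CYB had the smallest p of the mitochondrial genes, with 93.3, 93.5, and 149 CPM and then 135, 144, and 133 CPM (log2 fold change 0.30, SE 0.31).

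With both agents against osimertinib alone in H1975–OR, most nuclear genes had a value below 0, but none was called. Of the 80 nuclear genes, 62 had a negative log2 fold change and 18 a positive one, where 49.4% of all genes were negative. The median was -0.13, against 0.00 for all genes, and -0.14 in complex I and -0.17 in complex V. With edgeR and with DESeq2, 0 were higher and 0 lower. Of all genes, edgeR called 0.056% higher and 0.04% lower, and DESeq2 called 46 genes higher and 20 lower. At an unadjusted p under 0.05, the counts of the 80 nuclear genes were 0 and 5. Of all 12503 genes, 259 were higher and 261 lower at that p. Genes measured in the same libraries are not independent. The median standard error was 0.16.

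The 5 genes with an unadjusted p under 0.05 were ATP5J, ATP5G1, NDUFB8, NDUFB10, and ATP5J2. ATP5J had 66.0, 67.4, and 71.6 CPM with osimertinib and 49.3, 56.4, and 56.2 CPM with both agents (log2 fold change -0.35, SE 0.13, adjusted p = 1 with edgeR). NDUFB8, an accessory subunit of complex I, had 99.1, 86.4, and 94.7 CPM and then 72.8, 63.5, and 85.4 CPM (log2 fold change -0.35, SE 0.14). ATP5G1 had 62.2, 38.3, and 55.4 CPM and then 44.1, 22.8, and 29.0 CPM (log2 fold change -0.71). ATP5J and NDUFB8 did not overlap between the groups, while ATP5G1 did. ATP5G1 was lower with both agents in all 3 pairs of libraries with the same letter. The share of all genes lower in all 3 pairs was not counted, so this is description only. UQCR10 in complex III, COX7C in complex IV, and SDHC in complex II had the smallest p of theirs, with log2 fold changes of -0.33, -0.22, and -0.10.

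The mitochondrial mRNAs did not share the negative median. Theirs was 0.01, with 7 positive and 6 negative values between -0.65 for MT-ND6 and 0.44 and a median standard error of 0.35. MT-CO3 had 4446, 2855, and 3014 CPM with osimertinib and 3683, 2497, and 1822 CPM with both agents (log2 fold change -0.38, SE 0.24, adjusted p = 1). The groups overlapped, with 5c lowest and the letter a library highest in each. MT-CO3 too was lower with both agents in all 3 pairs of the same letter, which was likewise not set against all genes. With the replicate letter as a block, still no respiratory chain gene was called. Over all genes, 23 were called higher and 10 lower with the block, against 7 and 5 without it. The other values given for this comparison leave the letter out. Without Sample 5a the mitochondrial median became -0.43 and without 5c it became 0.33.

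**Figure D5:**
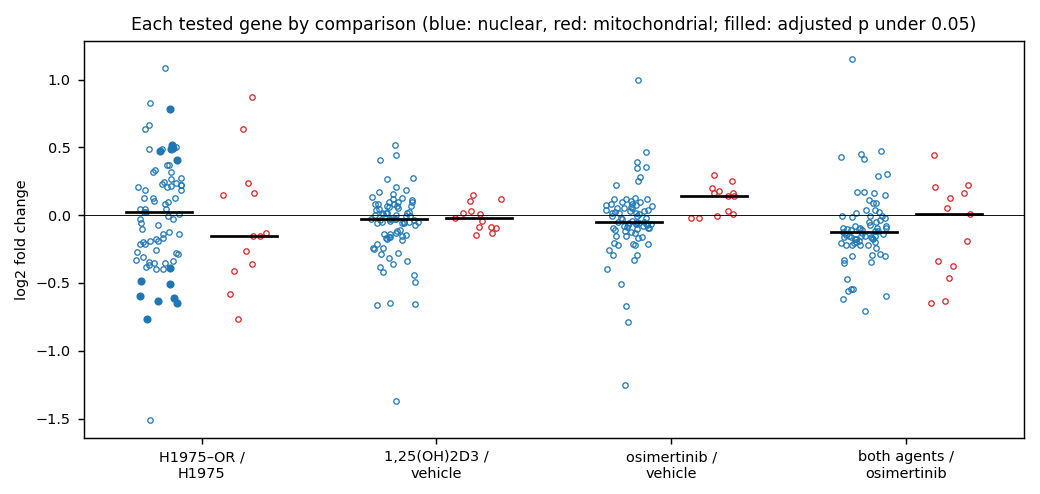
Log2 fold change (vertical axis) of each tested gene in 4 comparisons, nuclear genes in blue and mitochondrial genes in red. Filled points have an adjusted p under 0.05 and black lines are medians. Filled points occur only in H1975–OR against H1975, and the nuclear median for both agents against osimertinib is -0.13.

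The effect of 1,25(OH)2D3 with osimertinib was also compared directly with its effect without osimertinib. No gene was called, in a comparison in which 0% of all 12503 genes were called higher and 0% lower. DESeq2 called 0 of the respiratory chain genes as well, where it called 2 of all genes higher and 9 lower. At an unadjusted p under 0.05, 153 of all genes were higher and 177 lower. Among the respiratory chain genes, 0 were higher and 2 were lower at that p. These were NDUFB10, an accessory subunit of complex I, with 83.6 and 76.9 CPM in Samples 3b and 3c but 43.7, 38.5, and 51.2 CPM with both agents (difference of log2 fold changes -1.08, SE 0.35), and ATP5D, the delta subunit of the ATP synthase head (-0.88, SE 0.37). The median difference was -0.12 for the nuclear and -0.09 for the mitochondrial genes, with a median standard error of 0.24 and 0.53. The comparisons with 1,25(OH)2D3 and with osimertinib share the vehicle libraries, and this one shares the libraries of both treatments.

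The related lists gave the same counts in the 4 treatment comparisons. Of the assembly factors, regulators, carriers, and mitochondrial ribosomal proteins, 0 were called higher and 0 lower in each of them with edgeR. At an unadjusted p under 0.05, the mitochondrial ribosomal proteins had 1 higher and 3 lower with 1,25(OH)2D3, 0 and 5 with osimertinib, 0 and 4 for both agents against osimertinib, and 2 and 0 for the difference. Over all genes the counts were, in the same order, 456 and 454, 453 and 488, 259 and 261, and 153 and 177. With both agents against osimertinib, 58 of the 78 had a negative log2 fold change and the median was -0.12, close to that of the nuclear respiratory chain genes.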

How the data were processed

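Total RNA depleted of ribosomal RNA was sequenced as stranded libraries. The authors assigned reads with Kallisto and summed transcripts to genes with tximport, so the deposited values are estimated counts per gene, not scaled for depth or length. The submitters' processing notes name GRCh38, CASAVA 1.8.2, STAR 2.5.2b, and kallisto 0.43.0. The transcript annotation is not given in the sources used here. The members and gene lists were chosen with earlier results of these data known.

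Counts were rounded and analysed with edgeR 4.0.16 (R 4.3.3), with filterByExpr (minimum count 10, minimum total 15), TMM, the quasi-likelihood test, and Benjamini-Hochberg adjustment over all genes, threshold 0.05. The comparison of lines and 1,25(OH)2D3 against vehicle used 8 libraries, and those with osimertinib used the 11 H1975–OR libraries, without 3a. The fits were repeated with DESeq2 1.42.0, RLE size factors, no low-count filter, Sample 3a kept, a replicate block, 14 libraries in one fit, totals from nuclear genes, each library left out, and the longest transcript. Scripts were tested on simulated data. Deviations from group means, on log2(CPM + 2), correlated between same-lettered libraries at 0.124 to 0.310 for vehicle and osimertinib and at 0.258 to 0.464 for osimertinib and both agents, so letters pair these. For the 2 vehicle groups the correlation was -0.03 to 0.02, and for vehicle and 1,25(OH)2D3 0.07 to 0.11.

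Named genes were the mitochondrial mRNAs, called genes (up to 8 each way), the smallest p per complex, listed isoforms, the complex II genes, and the most and least abundant per complex. A gene that this rule names is not reported here. NDUFB10, ATP5J2, NDUFB8, and genes of the related lists with values were named after these were seen. Intervals of counting error were not used. The spread between libraries sets the precision.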

Additional observations from a re-analysis of the deposited data

Results flagged for a closer look

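The mitochondrial mRNAs took 1.54% of the estimated counts of Sample 3a, a library outside the tests, and at most 0.774% of a vehicle-treated H1975–OR library.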

How the results depend on the processing

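For nuclear genes in H1975–OR against H1975, the 14 calls became 5 with Sample 3a kept (1 higher and 4 lower), 19 with DESeq2 (7 and 12), 15 with RLE size factors, 12 without a filter, 12 with 14 libraries in one fit, 14 with totals from nuclear genes, and 10 with the replicate block (4 and 6). They ranged from 4 to 14 with single libraries left out. Over all genes, the 1237 higher and 1284 lower calls became 760 and 876 with Sample 3a kept. With DESeq2 they became 1438 and 1603, and with the replicate block 1038 and 1112. RLE size factors gave 1159 and 1336, no filter 1122 and 1205, and 14 libraries in one fit 1201 and 1195. Mitochondrial calls ranged from 0 to 2. The block left the respiratory chain calls in all 4 treatment comparisons at 0. Over all genes it called 9 higher and 0 lower with 1,25(OH)2D3 and 23 and 12 with osimertinib. For both agents against osimertinib it called 23 and 10, and for the difference 0 and 0. With Sample 3a kept, the median log2 fold change for 1,25(OH)2D3 was -0.17 for nuclear and 1.05 for mitochondrial genes. With single libraries left out, the mitochondrial median for osimertinib ranged from -0.0073 to 0.46. MT-ATP8, at -0.78 in the difference between the 1,25(OH)2D3 effects, ranged from -1.45 to 0.031, the last without Sample 3c. The cause was not tested. Among single genes named, 484 values under alternatives kept their direction and stayed called or not called, 58 lost the call, 1 gained it, and 1 reversed. The 484 include genes that were not called and stayed so. Only the 14 called genes could lose a call. With 2 or 3 libraries a group, median standard errors between 0.15 and 0.53 limit what could be called.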
